A study of Sus scrofa with 16 samples.

Results

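AMPK, the AMP-activated protein kinase, is described here through the genes of its subunits in pig heart, taken as every probe set whose platform gene symbol starts with PRKAA, PRKAB or PRKAG followed by a digit. There were 9 such probe sets, for 7 genes, among 23935 probe sets tested, which named 6765 genes. PRKAG2 was chosen by its difference between exercised and sedentary animals, and the other 6 genes entered by symbol alone. Training differences of all the subunits are given below as a description, with standard errors and without p-values. How precise the values are is limited by there being 8 arrays per group.

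Left ventricular muscle came from 16 Yorkshire x Landrace pigs, aged 2 to 3 months, with 1 Affymetrix porcine array each. There were 8 exercised animals (4 females and 4 castrated males) and 8 sedentary animals (4 females and 4 castrated males), and the RNA was taken 4 to 5 weeks after the exercise protocol began. No intact males entered the study, and the labels name no other treatment or genotype.

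AMPK is a trimer of a catalytic alpha, a scaffolding beta and a nucleotide-binding gamma subunit. When ATP runs down and AMP and ADP build up, the gamma subunit binds them and the kinase becomes active, which turns fuel-burning pathways on and ATP-consuming synthesis off. In heart the alpha2 subunit is the main catalytic form, and inherited variants of gamma2, the product of PRKAG2, cause a glycogen storage cardiomyopathy with ventricular pre-excitation.

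PRKAG2 was lower in exercised animals, which is the difference it was chosen by, so it is described without being counted as a result of the test. PRKAG1 rose on 1 of its 2 probe sets. The other PRKAG1 probe set, PRKAG3 and the alpha and beta genes did not pass. Of the 8 probe sets of the 6 other genes, 1 thus passed an adjusted p of 0.05 (limma, Benjamini-Hochberg over all probe sets). Of all probe sets 13.4% passed, 6.48% higher and 6.88% lower in exercised animals. That share is not a like background, because all 9 subunit probe sets lay at the 48.5 percentile of level or above. With the dimmest 40% of probe sets removed before testing, 631 passed in place of 3197, and with the dimmest 60% removed 77. The subunits' count was not tested against probe sets of similar level. The groups of 8 overlapped on all 9 subunit probe sets, while they did not overlap on 3.12% of all probe sets. In bulk tissue, fewer cells of a type and less RNA per cell cannot be told apart.

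The arrays came in a pair of batches that the labels do not name. Bacterial poly-A control transcripts, spiked in before labelling, averaged 7.22 to 8.20 log2 on 11 arrays (batch A, 6 exercised and 5 sedentary) and 5.82 to 6.31 on 5 arrays (batch B, exercised 7 and 8 with sedentary 6, 7 and 8). Batch B held 4 males and 1 female, so batch and sex partly coincide. The percentiles of level given here rank signals on the arrays and do not compare amounts of transcript between genes. All 8 measured ventricular muscle markers lay above the 90th percentile of level, and the 4 measured skeletal muscle markers lay at the 14.2 to 37.1 percentiles. The summed levels of the 9 marker lists overlapped between the groups. For the 8 ventricular markers the mean level, as a deviation from the mean of all arrays, ran from -0.07 to 0.16 log2 in exercised and from -0.10 to 0.06 in sedentary animals. Of 9 measured leukocyte markers 4 were higher in exercised animals (ITGAM, CD3G, CD79B and S100A8), beside 5.11% of all genes by their brightest probe set. These 4 were dim, at the 15.5 to 37.2 percentiles of level, and the rest lay between the 23.1 and 93.2 percentiles. The other 5 did not pass, with S100A9, CD14 and CD163 at -0.45, -0.29 and -0.24 and PTPRC and CD3E at 0.21 and 0.18, and the mean level of the list ran from -0.10 to 0.28 log2 in exercised and from -0.44 to 0.63 in sedentary animals. Of 4 atrial markers 1, NPPA, was lower, beside 4.91% of all genes, and that list ran from -0.63 to 0.13 and from -0.25 to 0.48. Of the 39 ventricular, skeletal muscle, endothelial, fibroblast, smooth muscle, erythroid and adipocyte markers 0 passed by limma. An unadjusted p under 0.05 was reached by 3. The share of all genes at that p was not counted, but is at least the 10% that passed the adjusted threshold. The part of these cell types in the subunit differences was not tested.

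**Figure D1:**
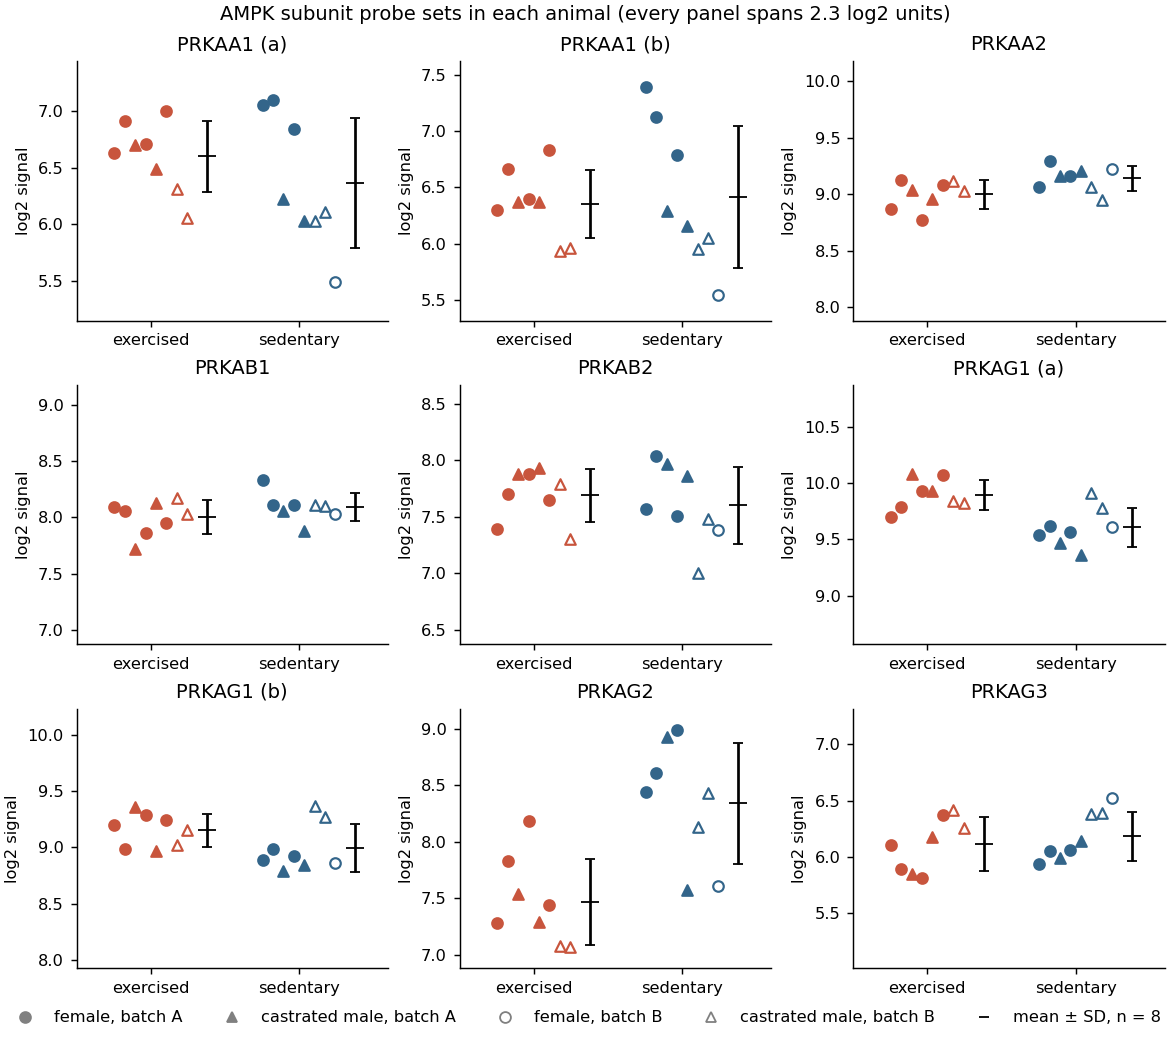
Log2 signal of the 9 AMPK subunit probe sets in each of the 16 animals, by training group, with sex as the marker shape, array batch as filled (A) or open (B) markers, and mean ± SD (n = 8) beside each group; (a) is the brighter and (b) the dimmer probe set of a gene. PRKAG2 is the panel with the widest gap between the groups, at 7.46 against 8.34 log2, and PRKAA1 the one where batch B lies lowest.

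PRKAG2, the gamma2 subunit gene (Entrez gene 100515868), is measured by a single probe set, at the 75.7 percentile of level. In the exercised animals it read 7.07 log2 at the lowest, 7.37 at the median and 8.18 at the highest. In the sedentary animals it read 7.57, 8.44 and 8.99. Exercised 2 and 4, at 7.83 and 8.18, were the 2 animals of their group inside the sedentary range, and the other 6 lay below every sedentary animal. Sedentary 5 and 8, at 7.57 and 7.61, were the low animals of theirs.

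The group means of PRKAG2 were 7.46 ± 0.38 (SD, n = 8) and 8.34 ± 0.54 (n = 8) log2, a difference of -0.88 (SE 0.210), or 1.83-fold lower in exercised animals. All 8 exercised animals lay below the sedentary mean. By sex, the difference was -0.73 (SE 0.297) in females and -1.02 (SE 0.297) in castrated males, with 4 animals per group. Within the batches the plain difference of means was -0.91 (A) and -0.98 (B), so the difference was as large inside either batch as over all arrays. In batch B the groups did not overlap, with 7.07 and 7.08 in the 2 exercised animals against 7.61 to 8.43 in the 3 sedentary ones, but with so few arrays 33.9% of all probe sets were parted in this way.

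PRKAG1 (Entrez gene 414426), the gamma1 subunit gene and the widely expressed member of the gamma family, has 2 probe sets, both above the 88th percentile of level. On the brighter, the exercised animals read 9.70 log2 at the lowest, 9.89 at the median and 10.08 at the highest, and the sedentary animals 9.36, 9.59 and 9.91. All 8 exercised animals lay above the sedentary mean, 4 of them above every sedentary animal, and 6 sedentary animals lay below every exercised one. The means were 9.90 ± 0.13 and 9.61 ± 0.17 (SD, n = 8), a difference of 0.29 (SE 0.0824), or 1.22-fold.

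The difference on that probe set was larger in batch A. There the 6 exercised animals spanned 9.70 to 10.08 and the 5 sedentary ones 9.36 to 9.62, without overlap, as for 8.59% of all probe sets, and the difference of means was 0.40. In batch B it was 0.07, with sedentary 6 at 9.91, above the exercised 9.82 and 9.84, and sedentary 7 close below them at 9.78. The probe set no longer passed without exercised 3, 4 or 6 or without sedentary 1, 3, 4 or 5 (0.24 to 0.29), or once the dimmest 40% of probe sets had been removed before testing. Its difference was 0.29 in females and 0.29 in males.

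The dimmer PRKAG1 probe set had the same direction and did not pass. It read 8.97 log2 at the lowest, 9.17 at the median and 9.36 at the highest in exercised animals, and 8.79, 8.91 and 9.37 in sedentary animals. The difference was 0.16 (SE 0.0916, n = 8), and by batch it was 0.29 (A) and -0.08 (B). Sedentary 6 and 7 were again high, at 9.37 and 9.27.

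PRKAG3 (Entrez gene 397149), the gamma3 subunit gene, is best known from skeletal muscle, where a variant of the pig gene changes glycogen content and meat quality. Its probe set lay at the 48.5 percentile of level. The exercised animals read 5.81, 6.15 and 6.42 log2 at the lowest, median and highest, and the sedentary animals 5.94, 6.10 and 6.52, so the ranges nearly coincided. The difference was -0.07 (SE 0.112), by batch 0.00 (A) and -0.09 (B), and it did not pass.

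The catalytic alpha2 gene PRKAA2 (Entrez gene 397504) varied little among animals. Its probe set lay at the 88.3 percentile of level and read 8.77, 9.04 and 9.13 log2 at the lowest, median and highest in exercised animals and 8.95, 9.16 and 9.29 in sedentary animals. All 8 exercised animals lay below the sedentary mean of 9.14 ± 0.11 (SD, n = 8), yet the difference was only -0.14 (SE 0.0665) and did not pass. It was -0.23 (SE 0.0941) in females and -0.06 (SE 0.0941) in males. By batch it was -0.20 (A) and -0.003 (B).

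The alpha1 gene PRKAA1 (Entrez gene 100145903), the other catalytic subunit and the form that predominates outside muscle, was the most variable of the family within the sedentary group. Its brighter probe set read 6.05, 6.66 and 7.00 log2 in exercised animals at the lowest, median and highest, and 5.49, 6.17 and 7.10 in sedentary animals. The dimmer read 5.94, 6.37 and 6.83 against 5.55, 6.22 and 7.39. Sedentary 8 was the lowest animal and sedentary 1 and 2 the highest on both, and the exercised animals lay inside the sedentary range. The training differences were 0.24 (SE 0.188) and -0.06 (SE 0.201), opposite in sign, and did not pass. Without sedentary 8 they were 0.05 and -0.26, and without sedentary 1 the second was 0.05.

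Of the scaffold genes, PRKAB1 (beta1, Entrez gene 100156537) read 7.72, 8.04 and 8.17 log2 at the lowest, median and highest in exercised animals and 7.88, 8.10 and 8.33 in sedentary animals, a difference of -0.09 (SE 0.0744). PRKAB2 (Entrez gene 100157793), the beta2 gene that is prominent in striated muscle, read 7.30, 7.75 and 7.93 in exercised and 7.00, 7.54 and 8.04 in sedentary animals, a difference of 0.09 (SE 0.145). Neither passed, and for both genes the group means lay closer together than 1 SD of either group. The difference for PRKAB2 by batch was -0.05 (A) and 0.26 (B), and without sedentary 6, the lowest animal at 7.00, it was -0.01.

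**Figure D2:**
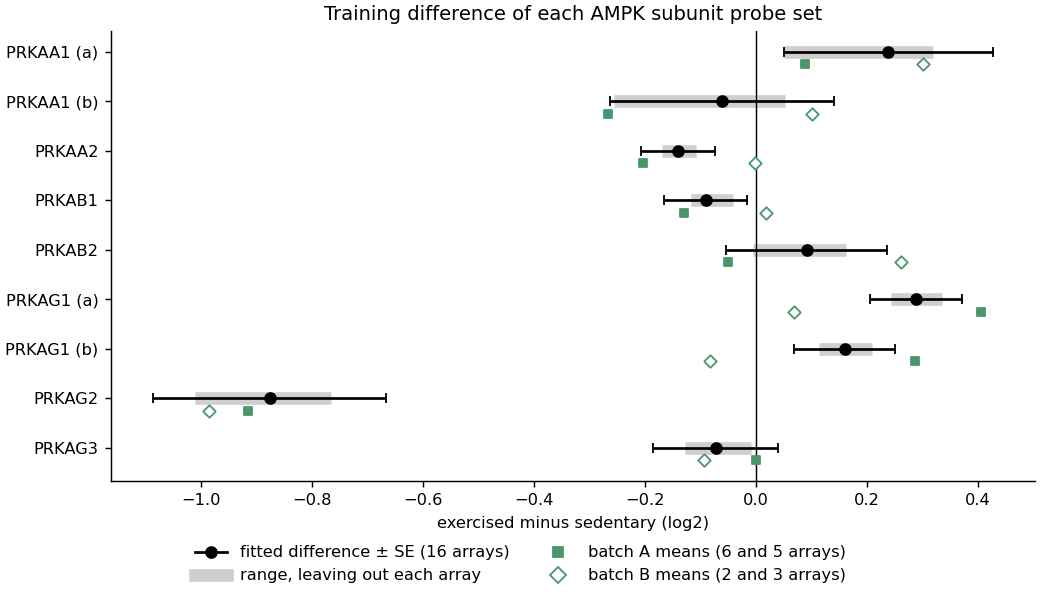
Exercised minus sedentary difference in log2 signal for each subunit probe set: fitted value ± SE over 16 arrays (black), range when each array is left out in turn (grey bar), and plain differences of means in batch A and batch B (green). PRKAG2 stays between -1.01 and -0.76 whichever array is left out, and the 2 PRKAG1 probe sets are higher in batch A (0.40 and 0.29) than in batch B (0.07 and -0.08).

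The next question was whether training acted alike on the subunits in both sexes, a measure that did not enter the choice of the genes. None of the 9 subunit probe sets passed for the difference between the training effects in males and females (limma), and 0 reached an unadjusted p under 0.05. Over all probe sets 0 passed (0%) and 621 (2.59%) reached that unadjusted p. For PRKAG2 the male effect minus the female effect was -0.29 (95% interval -1.18 to 0.60; adjusted p = 1.00). For the brighter PRKAG1 probe set it was -0.003 (-0.35 to 0.35), and for PRKAA2 0.17 (-0.11 to 0.45). These intervals are wide beside the effects themselves, and that of PRKAG2 includes differences between the sexes as large as its training effect.

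Between castrated males and females, averaged over training, none of the 9 probe sets passed, beside 0.0919% of all probe sets (22 of 23935). The 2 PRKAA1 probe sets reached an unadjusted p under 0.05, as did 9.26% of all probe sets. They were lower in males by -0.48 log2 (95% interval -0.87 to -0.08) and -0.49 (-0.92 to -0.07), each with an adjusted p = 0.537 (limma). The female and male means were 6.72 and 6.24 on the brighter and 6.63 and 6.14 on the dimmer. Sedentary 8, the lowest animal on both, is a female of batch B.

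Without sedentary 8 the PRKAA1 sex differences were -0.66 (adjusted p = 0.00495) and -0.69 (adjusted p = 0.0166), and both passed. Over the other fits that left out an array the adjusted p reached 0.766. With batch as a block they were -0.26 and -0.25 (adjusted p = 0.967 for both), and within batch A alone -0.55 (adjusted p = 0.123) and -0.53 (adjusted p = 0.365). For PRKAG2 the sex difference was -0.29 (95% interval -0.74 to 0.15; adjusted p = 0.621). Those of the remaining 6 probe sets lay between -0.04 and 0.11.

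Of the 9 subunit probe sets 4 differed between the array batches in a fit with batch beside training and sex, a comparison added after the values were seen. PRKAA1 was lower in batch B by -0.58 (SE 0.173, adjusted p = 0.0241, limma) and -0.66 (SE 0.178, adjusted p = 0.0147) on its 2 probe sets. PRKAB2 was lower by -0.47 (SE 0.130, adjusted p = 0.0170) and PRKAG3 higher by 0.37 (SE 0.0973, adjusted p = 0.0122). Of all probe sets 23.4% passed for batch. PRKAG2 was at -0.41 (SE 0.233, adjusted p = 0.235), and PRKAA2, PRKAB1 and both PRKAG1 probe sets lay between -0.02 and 0.13 without passing. With batch in the fit, the training difference of PRKAG2 was -0.93 (SE 0.196) and that of the brighter PRKAG1 probe set 0.30 (SE 0.0807).

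Where a gene had 2 probe sets they followed each other across animals. For PRKAA1 Pearson's r was 0.92 (permutation p = 1e-05, the smallest that 100000 resamples can give; Spearman's rho 0.93, p = 1e-05) over 16 arrays. It was 0.88 without the 2 animals farthest from the median. Within the 11 arrays of batch A r was 0.84 (permutation p = 0.002; rho 0.97). For PRKAG1 r was 0.79 (permutation p = 0.0005; rho 0.80, p = 0.0003), 0.72 without the 2 farthest animals, and 0.84 within batch A (permutation p = 0.002; rho 0.90). The training groups do not overlap on the brighter PRKAG1 probe set in batch A, and with the means of training and sex taken out r there was 0.53, against 0.83 for PRKAA1. Adjusted over these 4 relations the highest p of r was 0.002. PRKAG2 has no second probe set to set beside its own.

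**Figure D3:**
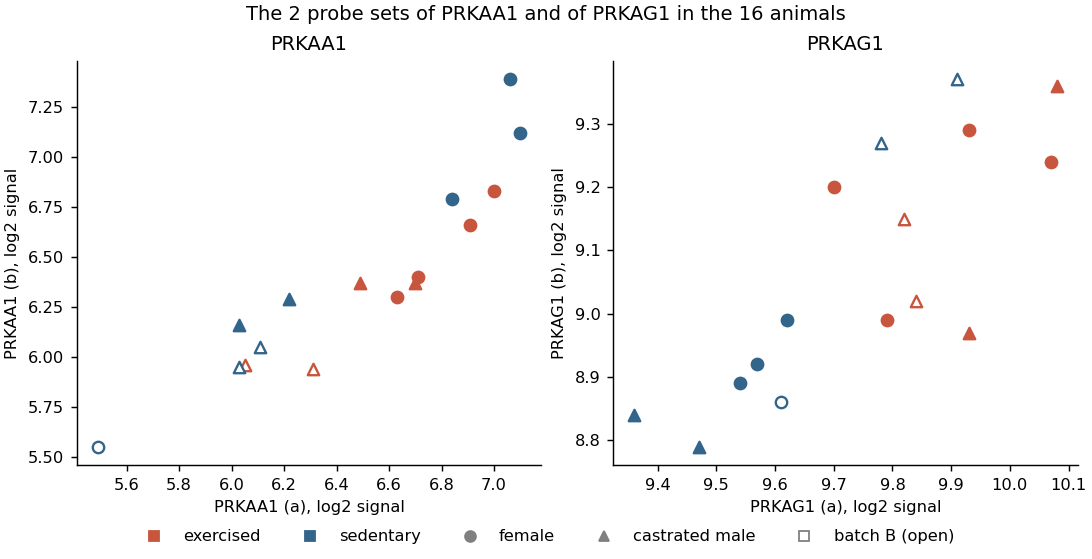
Log2 signal of the dimmer probe set (b) against the brighter probe set (a) of PRKAA1 and of PRKAG1 in each of the 16 animals, coloured by training group, with sex as the marker shape and batch B as open markers. Animals high on a probe set are high on the other (r = 0.92 and 0.79). For PRKAA1 the batch B animals lie low, below every batch A animal on the dimmer probe set. On the brighter, sedentary 5 and sedentary 3 of batch A lie among them at 6.03 and 6.22, with exercised 7 of batch B at 6.31.

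The genes whose levels most resembled PRKAG2 over the 16 arrays were KNG1, which codes for kininogen (r = 0.85), CTNND1, a catenin of cell junctions (0.85), SRSF3, a splicing factor (0.85), GPAM, the mitochondrial enzyme that starts glycerolipid synthesis (0.85), the uncharacterised LOC100624997 (0.85) and NOB1, a ribosome assembly factor (0.84). All 6 were lower in exercised animals, by 0.23 to 0.50 in size, and 5 of them passed the training test, NOB1 not (adjusted p = 0.0526, limma). SRSF3 read 10.83 ± 0.15 against 11.32 ± 0.26 log2 (SD, n = 8), at the 97.4 percentile of level. KNG1, LOC100624997 and CTNND1 were dim, at the 13.4, 21.9 and 25.4 percentiles, and GPAM and NOB1 lay at the 40.9 and 59.5 percentiles. The KNG1 probe set is not the brightest of its gene. The arrays in these correlations share the group difference that chose PRKAG2. Lower levels in exercised animals were thus largely built into the choice of these genes. Their passing is a description and not a separate result.

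With the means of the 4 combinations of training and sex taken out, other genes came first. MYO6, a motor protein of the myosin family (r = 0.86), PIK3IP1, an inhibitor of PI3 kinase (0.84), the matrix protein gene THBS2 (0.82), the growth factor receptor gene EGFR (0.81), the G protein subunit gene GNG12 (0.81) and NANOS1, an RNA-binding regulator (0.81) varied most like PRKAG2 between animals of the same group. Within the 11 arrays of batch A their r with PRKAG2, from the same kind of deviations, was 0.78 to 0.91. The 6 genes were chosen by their r over all the arrays, and those of batch A are among them. A high r there was thus largely built into the choice and is not a separate result. None of these 6 passed the training test (adjusted p from 0.172 to 0.839, limma). GNG12 and NANOS1 were dim, at the 19.8 and 22.5 percentiles of level, and the others lay between the 52.9 and 82.4 percentiles. The PIK3IP1 and NANOS1 probe sets are not the brightest of their genes.

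The genes around AMPK were then counted with each gene represented by its brightest probe set, where 10% of all 6765 genes passed for training, 5.11% higher and 4.91% lower, with a median difference of 0.01. Shares of all genes at an unadjusted p under 0.05 were not counted for training. Every gene that passed also had such a p, so that share is at least 10%. The lists' counts at that p are therefore not to be set against a share of 0.05. Of the upstream kinases, their cofactors and AMPK-binding proteins 4 of 18 listed genes were measured. STK11, the main kinase of the alpha subunit, STRADB, a pseudokinase that supports it, MAP3K7 and SESN1 did not pass (0 of 4 at an unadjusted p under 0.05, limma), and their median was 0.04. STRADB read 11.28 ± 0.19 against 11.15 ± 0.15 (adjusted p = 0.379) and MAP3K7 8.22 ± 0.37 against 8.41 ± 0.42 (adjusted p = 0.574; n = 8 for both, limma).

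Among proteins that AMPK phosphorylates 19 of 30 were measured, with 2 higher, 0 lower and 17 not passing, and a median of -0.05. ACACA, acetyl-CoA carboxylase 1 of fatty acid synthesis, rose by 0.28 to 4.67 ± 0.12 from 4.39 ± 0.20 log2 (SE 0.0841, n = 8, adjusted p = 0.0367, limma). Its dimmer probe set also rose, by 0.24 (adjusted p = 0.0132). IRS1, an adaptor of the insulin receptor, rose by 0.19 to 4.52 ± 0.05 from 4.33 ± 0.13 (SE 0.0592, n = 8, adjusted p = 0.0435). Both genes were dim, at the 24.8 and 23.2 percentiles of level, and all 8 exercised animals were above the sedentary mean for each.

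Both calls lay close to the threshold. ACACA passed in 6 of the 16 fits that left out an array (0.24 to 0.33, adjusted p from 0.0188 to 0.0744), namely without exercised 4, 6 or 7 or sedentary 2, 6 or 7. IRS1 passed in 2 of them (0.15 to 0.21, adjusted p from 0.0322 to 0.0815), without exercised 3 or sedentary 3. IRS1 also lost its call with the replicate number as a block (adjusted p = 0.0775, limma) and within batch A, at 0.13 (adjusted p = 0.228). In the fit with each gene's probe sets averaged its adjusted p was 0.0526. IRS1 has a single probe set, so its difference there stayed at 0.19. GFPT1, the entry enzyme of hexosamine synthesis, differed by 0.35 without passing (adjusted p = 0.0913), and passed with the replicate block and without sedentary 1. PPARGC1A and NOS3, both known substrates, differed by -0.21 and -0.13 without passing (adjusted p = 0.355 and 0.654), though PPARGC1A passed, as lower, without sedentary 5.

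Enzymes that handle adenine nucleotides and phosphocreatine set the AMP level that the gamma subunit reads. None of the 18 measured (of 31 listed) passed, 4 reached an unadjusted p under 0.05, and the median was -0.02. CKB, the brain-type creatine kinase, differed by 0.31 (SE 0.129, adjusted p = 0.132) and the mitochondrial creatine kinase CKMT1A by -0.21 (SE 0.0886, adjusted p = 0.138). Without exercised 5 CKB passed, at 0.40 (adjusted p = 0.0228). CKM and CKMT2, the muscle and sarcomeric mitochondrial creatine kinases, differed by 0.001 and 0.12 at the 99.9 and 99.2 percentiles of level. ATIC, which uses up the AMP mimic AICAR ribotide, differed by 0.17 (adjusted p = 0.172).

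Of the kinases related to the alpha subunit 8 of 14 were measured, 0 passed, 1 reached an unadjusted p under 0.05, and the median was -0.02. MELK, a kinase of dividing cells, differed by 0.40 (SE 0.158, adjusted p = 0.107), by batch 0.16 (A) and 0.82 (B), and NUAK1 by -0.19 (adjusted p = 0.250). Without exercised 5, its lowest exercised animal, MELK passed at 0.52 (adjusted p = 0.0212). Of genes for glucose and fatty acid use that are known to respond to AMPK 18 of 26 were measured, 0 passed, 0 reached an unadjusted p under 0.05, and the median was -0.02. PDK4, which keeps pyruvate from oxidation, read 11.17 ± 0.96 against 11.95 ± 0.68 log2 (SD, n = 8), a difference of -0.78 (SE 0.383, adjusted p = 0.206, limma). The dimmer PDK4 probe set differed by -0.96, also without passing (adjusted p = 0.188). UCP3, a mitochondrial carrier, differed by -0.15 (SE 0.0697, adjusted p = 0.195, limma), and with batch as a block it passed at -0.17 (adjusted p = 0.0310). The dimmer UCP3 probe set differed by only -0.005 (adjusted p = 0.986).

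Glycogen genes were counted because inherited gamma2 variants lead to glycogen storage. Of 25 listed 12 were measured, with 1 higher, 1 lower and 10 not passing, and a median of 0.05. An unadjusted p under 0.05 (limma) was reached by 6 of the 12. The share of all genes at that p was not counted, but is at least 10%. PPP1R3B, which brings a phosphatase to glycogen and so favours its synthesis, rose by 0.56, from 7.20 ± 0.35 to 7.76 ± 0.28 log2 (SE 0.138, n = 8, adjusted p = 0.0138). It was 0.85 in females and 0.27 in males, a difference between the sexes that did not pass (adjusted p = 1.00). The call was lost with the replicate block (adjusted p = 0.0504), within batch A at 0.58 (adjusted p = 0.0532) and with the dimmest 60% of probe sets removed (adjusted p = 0.0766). STBD1, a glycogen-binding protein of its breakdown in lysosomes, fell by 0.49 to 7.93 ± 0.27 from 8.42 ± 0.26 (SE 0.128, n = 8, adjusted p = 0.0180), and by batch the difference was -0.35 (A) and -0.72 (B). Its dimmer probe set differed by 0.12, the opposite way, without passing (adjusted p = 0.475), and with the probe sets averaged STBD1 was at -0.19 (adjusted p = 0.321). Its call was also lost in the fit within batch A, at -0.30 (adjusted p = 0.170), and with the dimmest 60% of probe sets removed (adjusted p = 0.0889). GYS1, muscle glycogen synthase and itself an AMPK substrate, differed by -0.06 and the muscle phosphorylase gene PYGM by 0.05, neither passing.

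**Figure D4:**
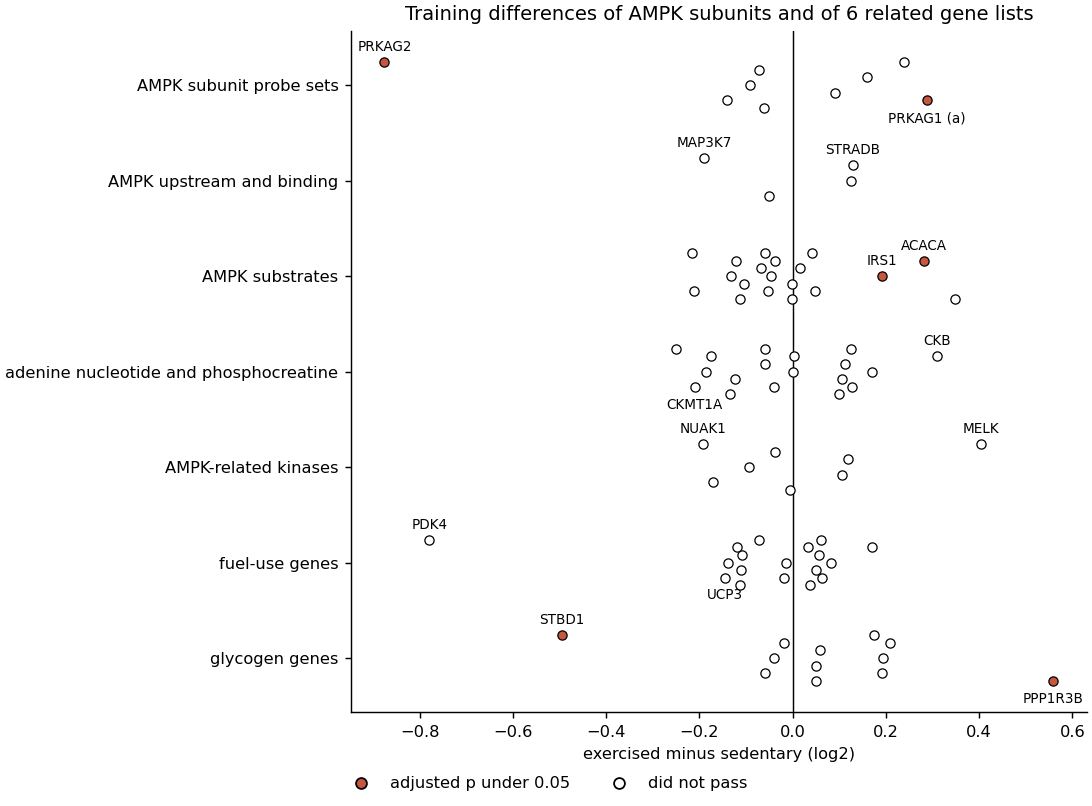
Exercised minus sedentary difference in log2 signal for the 9 AMPK subunit probe sets and for the brightest probe set of each gene in 6 related lists; filled points passed an adjusted p of 0.05 (limma), and points are spread vertically only to keep them apart. PRKAG2 at -0.88 lies lowest of all the points, and of the listed genes ACACA, IRS1, PPP1R3B and STBD1 passed.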

How the data were processed

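Biotin-labelled cRNA was hybridised to one-channel Affymetrix arrays, per the labels' protocols. The deposited values are log2 signals per probe set, from 2.87 to 14.86, with array medians of 6.236 to 6.242. Summarisation and normalization by the authors are not given in the sources used here, and no further normalization was applied. Of 24123 rows, 188 controls were left out. Symbols came from the platform annotation, and all 7 subunit genes matched the RefSeq table by Entrez identifier.

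Means for the 4 combinations of training and sex were fitted to all 23935 probe sets (lmFit and eBayes, limma 3.58.1, R 4.3.3, 12 residual and 3.50 prior degrees of freedom), with two-sided p-values adjusted by Benjamini-Hochberg across the whole table. Batches were the 2 sides of the widest gap in the mean of 42 poly-A controls. The subunits, lists, batches and alternatives were chosen with earlier results of these data known. Named were all subunits, for each list up to 4 called genes per direction (or the 2 smallest p), the 6 genes most like PRKAG2 by each measure, and a few genes (STK11, SESN1, GFPT1, PPARGC1A, NOS3, CKM, CKMT2, ATIC, GYS1, PYGM) chosen after their values were seen. The labels do not say that animals of the same number are paired, and 5 of 8 such pairs correlated above 0.1 in their deviations from group means. Figures used matplotlib 3.10.9.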

Additional observations from a re-analysis of the deposited data

Results flagged for a closer look

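Among the subunits and the named genes of the related lists, each group of 8 arrays was checked for an animal far from the others, 42 groups in all, of which chance alone would set apart about 1 in 20. None of the 9 subunit probe sets had such an animal. IRS1 in sedentary 6 read 4.04 log2, against 4.31 in the nearest animal and 4.44 in the highest of its group. MELK in exercised 5 read 4.70 log2, against 5.39 in the nearest animal and 5.85 in the highest of its group.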

How the results depend on the processing

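The PRKAG2 difference, by which the gene was chosen, kept its direction under every alternative run, from -0.93 to -0.88. Both filters, trended and robust eBayes, a fit without sex and the replicate block cannot change this fitted difference. Quantile normalization and median centring also left it at -0.88. It was -0.93 with batch as a block and -0.92 within batch A. When an array was left out it ran from -1.01 (without sedentary 8) to -0.76 (without sedentary 3). Subunit probe sets called for training were 1 among probe sets above the 40th percentile of level and 0 above the 60th. Of all probe sets 77 passed above the 60th, 631 above the 40th and 4325 with batch as a block. Leaving out an array gave 1 to 2 subunit calls, and in the 7 fits with 1 it was PRKAG2, as above the 40th percentile. These counts include PRKAG2, which was chosen by this same difference, so its calls are not a result. Beside PRKAG2 only the brighter PRKAG1 probe set was called, in 9 of the 16 fits that left out an array. For sex the number of subunit probe sets called was 0 to 2 over the alternatives, 2 only without sedentary 8, and for training by sex 0 throughout. AMPK substrates called were 0 with either filter, 1 within batch A, 1 with each gene's probe sets averaged (ACACA in both) and 0 to 2 when an array was left out, with SREBF2 and GFPT1 the 2 called without sedentary 1 and PPARGC1A called without sedentary 5. Adenine nucleotide genes called were 3 with each gene's probe sets averaged (ADK, ATIC and GART), and 0 to 1 when an array was left out. Related kinases gave 0 to 1 when an array was left out. Fuel-use genes gave 1 with batch as a block (UCP3) and 1 with each gene's probe sets averaged (PPARD). Glycogen genes gave 0 above the 60th percentile and 0 within batch A, 1 with each gene's probe sets averaged (PPP1R3B), and 1 with the replicate number as a block (STBD1). There PPP1R3B had an adjusted p = 0.0504 (limma; 0.0126 to 0.0766 over its alternatives other than leaving out an array). Under the replicate block IRS1 lost its call and GFPT1 gained one, so that 2 substrates were called as before but not the same 2, no other count moved by more than 1.5 times, and the PRKAG2 difference was -0.88. The same-number correlations ran from -0.03 to 0.39, and 1 of 8 exercised arrays correlated best with its own number. The cause of these changes was not tested. Either filter removed ACACA and IRS1 from the test. The brighter PRKAG1 probe set stayed in under both filters without passing. Above the 60th percentile PRKAG2, PPP1R3B and STBD1 also stayed in and did not pass. No detection calls were used, so dim probe sets such as those of ACACA and IRS1 have an unknown distance from background.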
